A study of Mus musculus with 6 samples.

Results

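Pkm encodes the muscle-type pyruvate kinase, and a group of RNA-binding proteins decides which of a pair of its exons is spliced into the messenger RNA. The gene and 6 such splicing factors were examined here: Pkm, the polypyrimidine tract-binding proteins Ptbp1, Ptbp2 and Ptbp3, the heterogeneous nuclear ribonucleoproteins (hnRNPs) Hnrnpa1 and Hnrnpa2b1, and the serine/arginine-rich (SR) protein Srsf3. They were chosen by name for their reported roles, and are 7 of the 17558 genes in the deposited table. All 7 passed the filter on low counts. Their 37 transcript models in the table included 32 that passed.

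RNA was sequenced from C2C12, an immortalized mouse myoblast line, at 48 h of differentiation in low-serum medium. Control cells stably carried a scrambled, non-targeting hairpin (shScr) and have the genotype label WT. The other groups carried hairpins aimed at the Pkm1 isoform (shPkm1, genotype label Pkm1 Knockdown) or the Pkm2 isoform (shPkm2, genotype label Pkm2 Knockdown). Each group had 2 libraries. Hairpin sequences are not given in the sources used here, nor whether each line was a clone or a pool, and no group without a hairpin was analysed here. The labels do not say that libraries came from separate cultures, so p-values measure only the spread between these libraries.

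Pyruvate kinase catalyses the last step of glycolysis. Pkm1 and Pkm2 differ by mutually exclusive exons: Pkm1 is typical of differentiated muscle and brain, whereas Pkm2 is typical of embryonic, dividing and tumour cells. In textbook accounts, Ptbp1, Hnrnpa1 and Hnrnpa2b1 repress the Pkm1 exon, and Srsf3 promotes inclusion of the Pkm2 exon.

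The alternative exons of Pkm are shown because they are what distinguishes the encoded isoforms. Pkm lies on chromosome 9 from 59656368 to 59679375 (plus strand, GRCm38, GENCODE annotation). Each exon is exon 9 of 11 in its transcript and each is coding. The Pkm1 exon is chr9:59675029-59675195 and the Pkm2 exon is chr9:59675568-59675734, with 372 bases between them. Capitals mark the 64 of 167 positions at which they differ, an identity of 61.68%.
Pkm1 exon: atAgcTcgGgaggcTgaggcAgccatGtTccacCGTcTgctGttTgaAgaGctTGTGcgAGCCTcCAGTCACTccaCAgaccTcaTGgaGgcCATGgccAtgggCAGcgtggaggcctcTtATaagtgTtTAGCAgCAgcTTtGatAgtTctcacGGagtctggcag
Pkm2 exon: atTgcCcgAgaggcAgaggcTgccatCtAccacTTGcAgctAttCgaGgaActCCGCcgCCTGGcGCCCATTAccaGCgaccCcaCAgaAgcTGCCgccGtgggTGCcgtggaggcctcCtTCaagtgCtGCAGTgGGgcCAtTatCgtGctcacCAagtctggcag
The tetramer TCTT, a pyrimidine motif of the kind that polypyrimidine tract-binding proteins recognise, occurred in the Pkm1 exon and not in the Pkm2 exon (sense strand searched). It occurred in 47.3% of 716 internal coding-transcript exons of the same length. The hnRNP A1-type motif TAGGG, searched likewise, occurred in neither exon, against 2.65% of those exons. The first 50 intron bases after the Pkm1 exon (chr9:59675196-59675245) held TAGGG, in capitals, from base 2.
Intron after the Pkm1 exon: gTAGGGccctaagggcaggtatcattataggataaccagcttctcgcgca
Of 17942 such 50-base windows after coding exons that an annotated transcript retains, 4.57% held TAGGG. A match describes the letters and is not a measured binding site. TCTT was searched in the exons only. For TAGGG, the intron before the Pkm1 exon and the rest of the introns around the Pkm2 exon were not searched.

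Pkm RNA was measured first, since it checks the hairpin labels. Gene totals are given in CPM (counts scaled to a common library size) after TMM scaling, which corrects for differing RNA composition. Pkm stood at 3019 and 3473 CPM in shScr, at 1998 and 2186 in the libraries labelled shPkm1, and at 3658 and 3794 in those labelled shPkm2. The libraries labelled shPkm1 lay below both other groups, and those labelled shPkm2 lay just above the controls. Against shScr, Pkm fell by 0.63 on the log2 scale in shPkm1 (SE 0.133, edgeR adjusted p = 0.00107). The labelled shPkm2 libraries differed from shScr by 0.20 (SE 0.133, adjusted p = 0.198 in edgeR, 95% interval -0.09 to 0.49). The direct comparison put Pkm higher in the libraries labelled shPkm2 than in shPkm1 by 0.83 (SE 0.134, edgeR adjusted p = 0.000159).

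The scaling bears on these values. Dropping the TMM factors raised the median over tested genes by 0.19, 0.32 and 0.13 on the log2 scale in shPkm1, labelled shPkm2 and their direct comparison. With library totals alone, Pkm was then called higher in the libraries labelled shPkm2 than in shScr (0.52, edgeR adjusted p = 0.00243). Leaving out shScr replicate 2 also gave that call (0.31, edgeR adjusted p = 0.0282). On TPM (transcripts scaled for length and to a common total), the fall in shPkm1 was -0.24 on the log2(TPM + 1) scale and was not called (limma adjusted p = 0.124), and the labelled shPkm2 difference was 0.66 (limma adjusted p = 0.000666).

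The isoforms moved apart. The Pkm1 transcript (NM_001253883.1) stood at 980 and 958 CPM in shScr, at 315 and 300 in shPkm1, and at 313 and 334 in labelled shPkm2. This isoform was low in both hairpin groups, whose ranges overlapped each other. In the edgeR fit over transcripts it fell by 1.66 (log2; SE 0.0765, adjusted p = 0.00272) in shPkm1 and by 1.58 (SE 0.0763, adjusted p = 0.00124) in labelled shPkm2. Between the hairpin groups its difference was 0.08 (SE 0.0747, edgeR adjusted p = 0.690, 95% interval -0.12 to 0.27).

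The Pkm2 transcript (NM_011099.3) stood at 1927 and 2468 CPM in shScr, at 1656 and 1895 in shPkm1, and at 3330 and 3452 in labelled shPkm2. The targeted isoform was not lower in the libraries that carry its name as target: both lay above every other library. Against shScr its difference was 0.63 (log2; SE 0.161, edgeR adjusted p = 0.0656) in labelled shPkm2 and -0.31 (SE 0.161, edgeR adjusted p = 0.322) in shPkm1. The labelled shPkm2 difference was called with library totals (0.92, edgeR adjusted p = 0.0257), among transcripts averaging 50 counts or more (0.63, edgeR adjusted p = 0.0269), without shScr replicate 2 (0.82, edgeR adjusted p = 0.0420) and in DESeq2 (0.60, adjusted p = 0.000199). Labelled shPkm2 exceeded shPkm1 by 0.93 (SE 0.162, edgeR adjusted p = 0.0390), a call lost without any 1 of the hairpin libraries (adjusted p = 0.134 to 0.196 in edgeR) and with the replicate block (0.0612). On the log2(TPM + 1) scale the differences from shScr were 1.06 in labelled shPkm2, also called (limma adjusted p = 0.00994), and 0.06 in shPkm1, of opposite sign to the TMM value (limma adjusted p = 0.858). Since the label and the measured isoform disagree in direction, the group is called "labelled shPkm2" throughout.

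Both isoforms together carried nearly all Pkm reads: other models held 0.75% to 2.25% of the gene's counts. The ratio of Pkm2 to Pkm1 estimated counts was 1.97 and 2.58 in shScr, 5.27 and 6.32 in shPkm1, and 10.6 and 10.3 in labelled shPkm2. The groups did not overlap, and Pkm2 was the more abundant isoform in every library. As a share of the pair, Pkm2 made up 66.3% and 72.0%, then 84.0% and 86.3%, then 91.4% and 91.2%. The ratio of TPM gave the same values, because the deposited files give both transcripts an equal effective length (implied ratio 1.00 in each library). The GENCODE models are 2432 bases for Pkm2 and 2041 bases for Pkm1, so those models also differ outside the alternative exons. The equal effective length does not show that difference, so the models behind the deposited estimates may not be these. Which reads separated the isoforms in those estimates was not tested.

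The log2 ratio averaged 1.17 ± 0.276 (SD, n = 2) for shScr, 2.53 ± 0.186 for shPkm1 and 3.39 ± 0.0274 for labelled shPkm2. The differences from shScr were 1.36 and 2.22, and the hairpin groups differed by 0.86. A test of unequal transcript change within a gene (diffSpliceDGE in edgeR, over the gene's 4 tested models) did not call Pkm: its adjusted p was 0.855 for shPkm1, 0.371 for labelled shPkm2 and 1 between the hairpin groups. That test called 3.88%, 6.7% and 3.92% of 7704 genes in the same order. A limma test of the log2 count ratio of a gene's main curated pair covered 1696 genes. It was added after diffSpliceDGE had been seen not to call Pkm, so its calls on Pkm are not independent of that result. It called 0.059%, 6.84% and 1.47% of the genes covered. Pkm was called in labelled shPkm2 against shScr (adjusted p = 0.00885, 95% interval 1.74 to 2.70). It was not called in shPkm1 against shScr (limma adjusted p = 0.0826, interval 0.88 to 1.83) or between the hairpin groups (limma adjusted p = 0.127, interval 0.39 to 1.34). The limma call was lost when either labelled shPkm2 library was left out (adjusted p = 0.0514 and 0.0582).

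**Figure D1:**
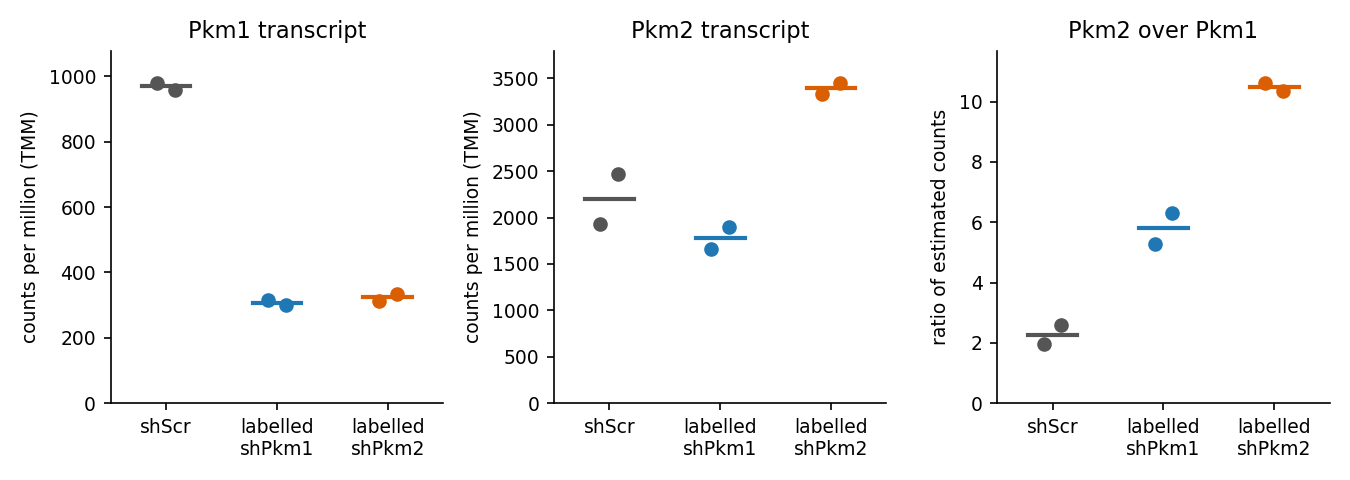
Pkm isoforms in each library. The left and middle panels plot TMM-scaled CPM of the Pkm1 and Pkm2 transcripts and the right panel plots the ratio of their estimated counts; points are libraries and bars are group means. Pkm1 is at 300 to 334 in both hairpin groups against 958 and 980 in shScr, while the ratio runs from 1.97 to 10.6.

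All 6 splicing factors were higher than in shScr in the libraries labelled shPkm2, and 4 of them also in shPkm1. Counted over the 7 genes, 4 were called higher and 1, Pkm, lower in shPkm1, 6 higher and none lower in the libraries labelled shPkm2, and 7 higher in labelled shPkm2 against shPkm1 (edgeR, adjusted p under 0.05). Among all 12643 tested genes, 31.8% were called higher and 31.4% lower in shPkm1, 33.9% higher and 34.2% lower in labelled shPkm2, and 25.7% higher and 27.3% lower between the hairpin groups. The median log2 fold change of the 7 genes was 0.27, 1.17 and 0.83 in that order, against 0.00, 0.01 and 0.00 for all genes. The first 2 comparisons share the shScr libraries, and the third shares the others with them. On log2(TPM + 1) in limma, 6 of the 7 were called higher and none lower in shPkm1, where 49% of all tested genes were called higher and 13.7% lower on that scale.

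Ptbp1, the founding member of its family and the form found in most dividing cells, stood at 196 and 220 CPM in shScr. It reached 284 and 303 in shPkm1 and 633 and 606 in labelled shPkm2. The groups did not overlap, and shPkm1 lay between the others. The log2 fold change against shScr was 0.50 (SE 0.106, edgeR adjusted p = 0.00115) in shPkm1 and 1.57 (SE 0.108, edgeR adjusted p = 3.07e-08) in labelled shPkm2. Labelled shPkm2 exceeded shPkm1 by 1.08 (SE 0.106, edgeR adjusted p = 1.98e-06). Each of these calls held under the 16 other settings tried.

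Ptbp2, the paralogue typical of neurons and also found in testis, was a low-abundance gene. It stood at 12.8 and 13.9 CPM in shScr, at 24.7 and 19.5 in shPkm1, and at 36.5 and 36.4 in labelled shPkm2. It kept the order of Ptbp1 without overlap. The log2 fold changes were 0.72 (SE 0.133, edgeR adjusted p = 0.000388), 1.45 (SE 0.130, adjusted p = 4.57e-07) and 0.72 (SE 0.123, adjusted p = 0.000250) for shPkm1, labelled shPkm2 and their direct comparison.

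Ptbp3, a paralogue known first from blood-forming cells, stood at 21.4 and 28.5 CPM in shScr. It reached 60.7 and 52.0 in shPkm1 and 87.5 and 77.7 in labelled shPkm2. The control libraries were again lowest and the libraries labelled shPkm2 highest. Its log2 fold changes were 1.17 (SE 0.137, edgeR adjusted p = 8.64e-06) and 1.72 (SE 0.137, adjusted p = 1.38e-07) against shScr, each the largest among the 7 genes. Between the hairpin groups it was 0.55 (SE 0.129, edgeR adjusted p = 0.00275), a call lost without shPkm1 replicate 2 (0.44, edgeR adjusted p = 0.0603).

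Hnrnpa1, an abundant nuclear protein that shuttles with messenger RNA, stood at 359 and 391 CPM in shScr, at 465 and 438 in shPkm1, and at 861 and 825 in labelled shPkm2. The shPkm1 libraries lay slightly above the controls and the libraries labelled shPkm2 far above both. The shPkm1 difference of 0.27 (log2; SE 0.107) was just past the threshold (edgeR adjusted p = 0.0425). It was not called when only those groups were fitted (adjusted p = 0.0633 in edgeR), nor without shScr replicate 1 (0.112), shPkm1 replicate 1 (0.194), shPkm1 replicate 2 (0.0887), labelled shPkm2 replicate 1 (0.0663) or labelled shPkm2 replicate 2 (0.0671). The replicate block lost that shPkm1 call too. The differences of 1.17 (SE 0.108, edgeR adjusted p = 6.28e-07) in labelled shPkm2 and 0.90 (SE 0.108, adjusted p = 1.18e-05) between the hairpin groups held under all 16 settings.

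Hnrnpa2b1, which encodes the closely related A2 and B1 proteins, stood at 318 and 327 CPM in shScr, at 385 and 352 in shPkm1, and at 494 and 502 in labelled shPkm2. The controls were lowest and the libraries labelled shPkm2 highest, without overlap. The difference of 0.19 (log2; SE 0.102) in shPkm1 was not called (edgeR adjusted p = 0.118, 95% interval -0.03 to 0.41), but was with library totals alone (0.39, edgeR adjusted p = 0.00717). Labelled shPkm2 was higher than shScr by 0.63 (SE 0.102, edgeR adjusted p = 0.000114) and than shPkm1 by 0.44 (SE 0.102, adjusted p = 0.00279). The latter was lost without shPkm1 replicate 2 (0.37, edgeR adjusted p = 0.0532).

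Srsf3, the smallest SR protein and the listed activator of the Pkm2 exon, stood at 90.4 and 84.3 CPM in shScr, at 95.4 and 89.0 in shPkm1, and at 154 and 175 in labelled shPkm2. Its shScr and shPkm1 libraries overlapped. The shPkm1 difference was 0.08 (log2; SE 0.104, edgeR adjusted p = 0.531, 95% interval -0.15 to 0.30) with TMM, and 0.27 with library totals alone (edgeR adjusted p = 0.0395). Labelled shPkm2 was higher than shScr by 0.92 (SE 0.103, edgeR adjusted p = 4.05e-06) and than shPkm1 by 0.84 (SE 0.103, adjusted p = 1.46e-05).

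**Figure D2:**
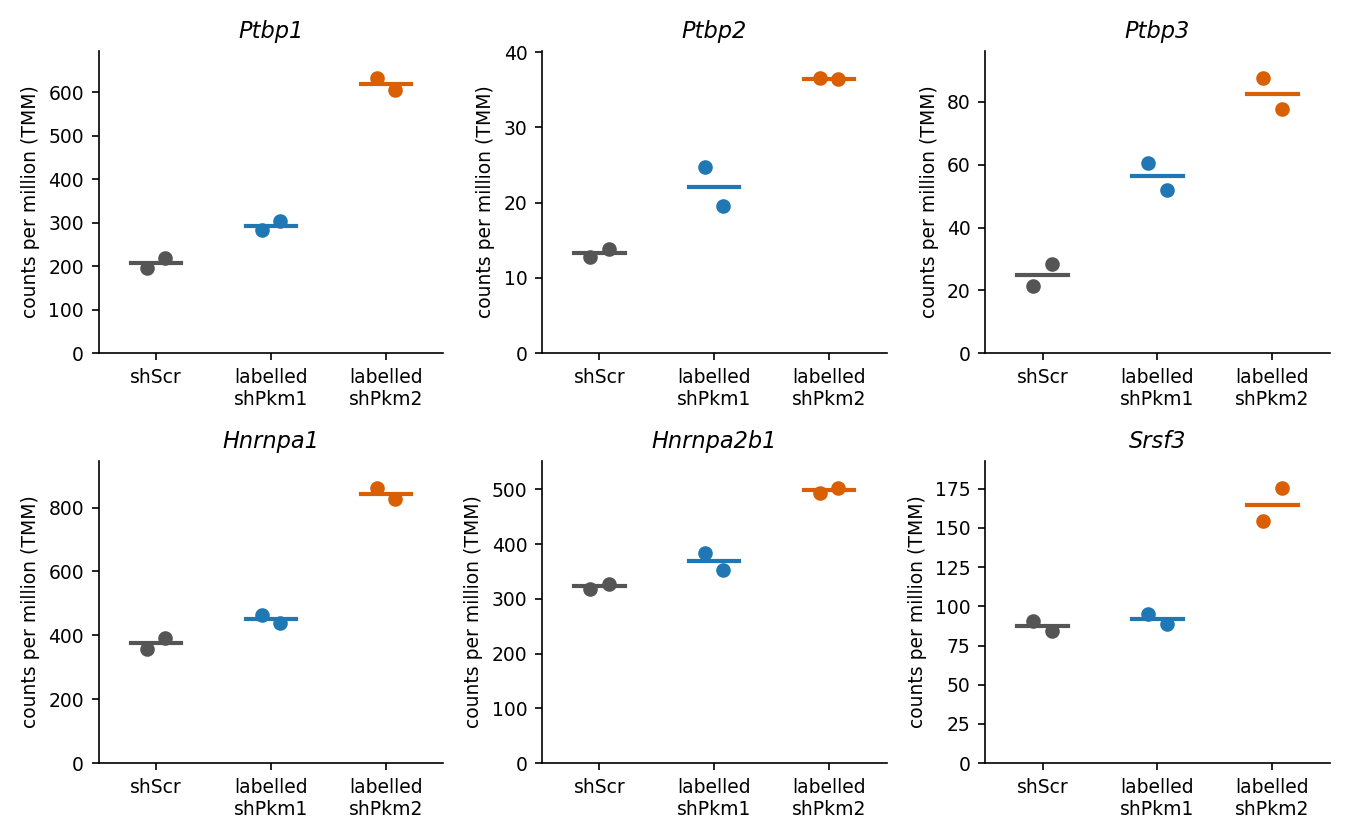
The 6 splicing factors in each library, as TMM-scaled CPM on axes that start at 0. Points are libraries and bars are group means. The libraries labelled shPkm2 are highest in every panel, and Srsf3 is the panel in which shScr and shPkm1 overlap.

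Levels can be compared between genes on the TPM scale, which accounts for transcript length. In shScr, mean TPM followed the order Pkm (1890), Hnrnpa1 (297), Hnrnpa2b1 (165), Ptbp1 (95.1), Srsf3 (47.4), Ptbp2 (5.50) and Ptbp3 (5.04). The last pair overlapped between libraries, at 4.97 and 6.03 against 4.04 and 6.04, and the other neighbours did not. In the libraries labelled shPkm2 the order of Ptbp1 and Hnrnpa2b1 was exchanged. Ptbp1 stood at 405 and 367 TPM there and Hnrnpa2b1 at 352 and 338, without overlap. Ptbp2 and Ptbp3 stayed low in TPM, at 19.9 to 21.1 and 20.8 to 24.7, and overlapped again.

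**Figure D3:**
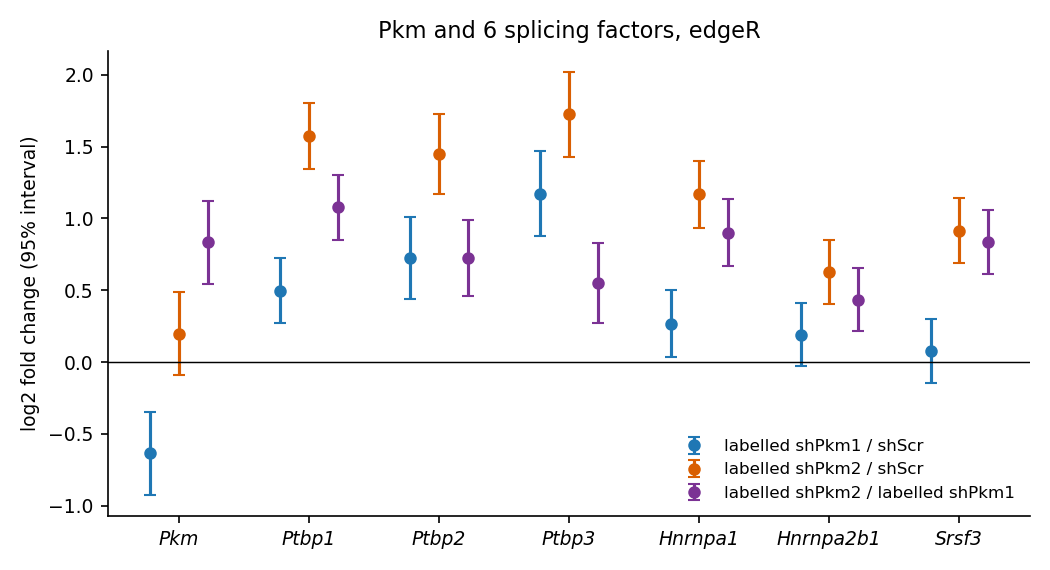
Log2 fold changes of Pkm and the 6 splicing factors with 95% intervals from edgeR, for labelled shPkm1 over shScr, labelled shPkm2 over shScr and labelled shPkm2 over labelled shPkm1. Intervals of all 6 factors lie above 0 in labelled shPkm2, and Pkm is the gene below 0 in shPkm1, at -0.63.

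Single transcripts were tested in a fit of their own. Of the 32 member transcripts, 3 were higher and 1 lower in shPkm1, 12 higher and 1 lower in labelled shPkm2, and 6 higher and none lower between the hairpin groups. The background over 33433 transcripts was 5.47% higher and 5.36% lower, 7.91% higher and 9.32% lower, and 2.87% higher and 5.04% lower. The single lower transcript was Pkm1 in both comparisons with shScr. These counts rest on few libraries. In shPkm1 against shScr the 4 calls became 1 without shScr replicate 1 or without any 1 of the hairpin libraries. The 13 calls in labelled shPkm2 became 8 without shScr replicate 1, and 6 or 7 without labelled shPkm2 replicate 1 or 2. The 6 between the hairpin groups became 1 without any 1 of their 4 libraries. Calls over all transcripts shrank with the same omissions, to 0.204% to 2.59% higher and 0.167% to 2.15% lower in shPkm1, 2.02% to 4.69% and 3.69% to 4.85% in labelled shPkm2, and 0.199% to 0.274% and 0.812% to 1.19% between the hairpin groups.

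Ptbp1 has curated transcripts that contain (NM_001077363.2) or lack (NM_008956.3) an internal coding exon of 78 bases, shown because it is the splicing choice within a splicing factor that the table resolves best. It is exon 8 of 14 at chr10:79860117-79860194 (plus strand).
Ptbp1 alternative exon: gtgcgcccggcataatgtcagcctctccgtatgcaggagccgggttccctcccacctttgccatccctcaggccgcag
The ratio of the transcript with the exon to the one without was 2.03 and 2.42 in shScr, 2.70 and 2.96 in shPkm1, and 2.16 and 2.00 in labelled shPkm2. The shPkm1 libraries were highest, and the other groups overlapped. The log2 ratio differed by 0.35 for shPkm1 (limma adjusted p = 0.344), -0.09 for labelled shPkm2 (0.759) and -0.44 between the hairpin groups (0.265), so none was called. Both transcripts rose: the one with the exon by 0.63 in shPkm1 (edgeR adjusted p = 0.0399) and 1.57 in labelled shPkm2 (0.00295), the one without it by 0.29 (0.0443) and 1.67 (0.000766). The shPkm1 calls were close to the threshold. That of NM_001077363.2 was lost with only the groups compared (edgeR adjusted p = 0.0810), with the replicate block (0.0801) and without shScr replicate 1 or any 1 of the hairpin libraries (0.0982 to 0.170). That of NM_008956.3 was lost under these settings, without shScr replicate 2, with no filter and with DESeq2 size factors (edgeR adjusted p = 0.0610 to 0.212). Another coding transcript, NM_001283013.1, rose by 2.39 (SE 0.323, edgeR adjusted p = 0.0117) in labelled shPkm2, from 1.89 and 2.45 CPM to 10.7 and 12.2, a call lost without labelled shPkm2 replicate 1 (adjusted p = 0.0714) or 2 (0.0858).

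Hnrnpa1 was the member whose transcripts the diffSpliceDGE test called. Its curated coding transcripts are NM_010447.5, the main one, and NM_001039129.4. The main transcript outnumbered the other by 3.85 and 5.31 in shScr, 4.79 and 4.66 in shPkm1, and 5.81 and 7.08 in labelled shPkm2. The libraries labelled shPkm2 were highest. By the pair test no comparison was called (limma adjusted p = 0.909, 0.269 and 0.433). In diffSpliceDGE, which also uses the predicted non-coding model XR_383983.1, Hnrnpa1 gave an adjusted p of 0.941 in shPkm1, 0.0132 in labelled shPkm2 and 0.0114 between the hairpin groups. That model took 6.04% and 6.15% of Hnrnpa1 counts in shScr, 7.67% and 6.28% in shPkm1, and 2.49% and 3.10% in labelled shPkm2. Its own level differed by 0.07 between labelled shPkm2 and shScr (SE 0.183, edgeR adjusted p = 0.880), while the main transcript rose by 1.33 (SE 0.104, adjusted p = 0.00307). Hnrnpa1 has many processed copies in the genome, and reads that such copies share could not be followed in the summed counts.

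The other factors were less well resolved. In Ptbp2 the predicted non-coding model XR_001783719.1 took 4.83% of counts in each shScr library, 17.7% and 16.4% in shPkm1, and 14.7% and 8.29% in labelled shPkm2. Its rise in labelled shPkm2 was 2.69 (log2, SE 0.563, edgeR adjusted p = 0.0382). In shPkm1 it was 2.55 (SE 0.560, edgeR adjusted p = 0.0578), and was called among transcripts averaging 50 counts or more (edgeR adjusted p = 0.0371). The labelled shPkm2 call was lost without any 1 of the 6 libraries (edgeR adjusted p = 0.0805 to 0.182), with only the groups compared, with the replicate block and with no filter (0.0656 to 0.0856). The curated Ptbp2 transcripts NM_019550.2 and NM_001310711.1 stayed in a ratio of 1.08 to 1.65 in all libraries. In Ptbp3 the assignment varied within groups: the main transcript NM_178164.3 held 60.8% and 35.5% of counts in the shScr libraries. In Hnrnpa2b1 the predicted non-coding model XR_868868.2 took 71.1% to 79.7% of counts in every library, so the A2 and B1 coding forms could not be compared well. Srsf3 was represented by 1 coding transcript, and its form with the additional exon was not analysed here.

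The state of the cultures moved with the same groups. The 8 muscle genes listed for this check (Myod1, Myf5, Myog, Des, Cdh15, Myh3, Ckm and Acta1) were all detected, with a summed level of 18550 to 24174 TPM in shScr, 9805 to 10689 in shPkm1 and 1170 to 1261 in labelled shPkm2. In shPkm1, 7 of 8 fell and Myf5 did not pass (0.25, edgeR adjusted p = 0.0588). On log2(TPM + 1), Des (-0.12, limma adjusted p = 0.339) and Cdh15 (-0.24, limma adjusted p = 0.104) were not called there and Myf5 was called higher (0.60, limma adjusted p = 0.00173). The Des call was also lost without shPkm1 replicate 1 (edgeR adjusted p = 0.0862). In labelled shPkm2, 7 of 8 fell and Myf5, a factor of undifferentiated myoblasts, rose by 1.74 (edgeR adjusted p = 9.39e-09). Over all tested genes, 31.4% were lower in shPkm1, and 34.2% were lower and 33.9% higher in labelled shPkm2. Myog, which drives entry into differentiation, stood at 2336 and 1988 CPM in shScr, 1097 and 1162 in shPkm1, and 49.2 and 56.9 in labelled shPkm2. The division markers Mki67 and Top2a were called higher in every comparison, as were 31.8%, 33.9% and 25.7% of all tested genes, with a summed level of 30.8 and 39.7 TPM in shScr, 107 and 103 in shPkm1, and 321 and 268 in labelled shPkm2. In bulk RNA, fewer cells of a type and less RNA per cell cannot be told apart. The part of these markers in the isoform ratio and in the splicing factor values was not tested.

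**Figure D4:**
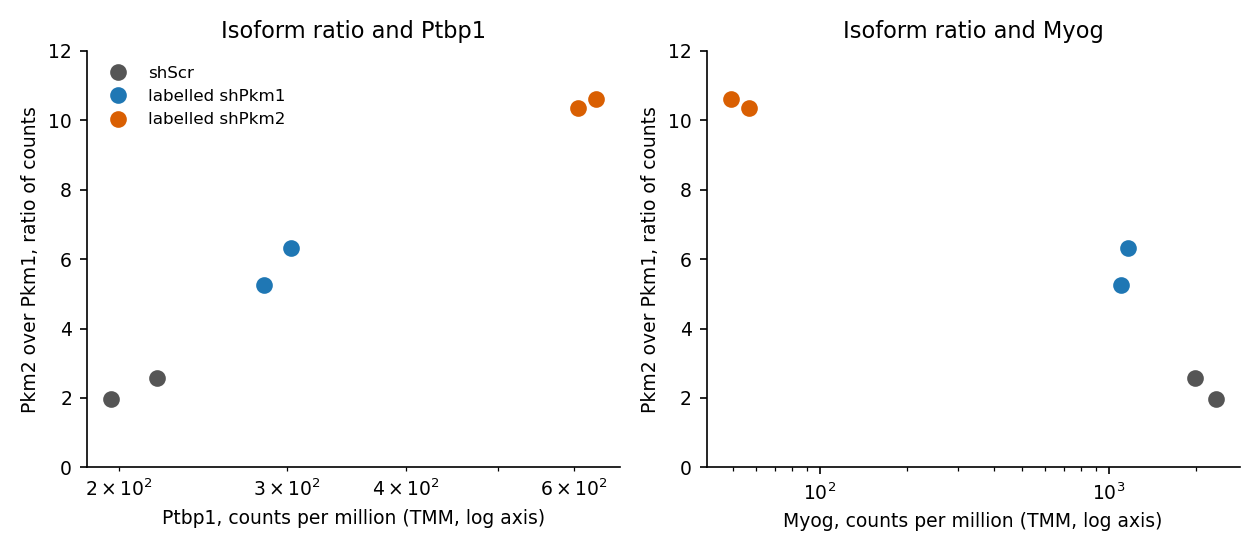
Ratio of Pkm2 to Pkm1 estimated counts in each of the 6 libraries against Ptbp1 (left) and Myog (right), both in CPM on log axes. The libraries line up by group in both panels: the ratio is highest where Ptbp1 is at 606 and 633 and Myog at 49.2 and 56.9.

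Among markers of other cell types, the fat list (2 of 3 in the table) summed to 0.08 TPM or less in each library, the bone list to 1.49 or less, the vessel list to 0.33 or less, and the immune list, of which only Cd68 is in the table, to 3.62 or less. Cd68 was called higher at these low levels, by 1.02 (log2; edgeR adjusted p = 0.0313) in shPkm1 and 1.22 (adjusted p = 0.0101) in labelled shPkm2. Both Cd68 calls were lost without shScr replicate 1 (edgeR adjusted p = 0.180 and 0.0605) and in DESeq2 (adjusted p = 0.118 and 0.0536), the former also without shPkm1 replicate 1 or 2 (0.193 and 0.0515) and the latter without labelled shPkm2 replicate 2 (0.0782). Of the 5 neuron markers, Rbfox3, Snap25 and Elavl4 were at 3 counts or fewer in every library. Syt1 rose in both hairpin groups, from 4 and 7 counts in shScr to 28 and 48 in shPkm1 (log2 2.56, edgeR adjusted p = 0.000243) and 30 and 24 in labelled shPkm2 (1.94, adjusted p = 0.00232). The neuron list is given because Ptbp2 is typical of neurons. Its sum was 40.7 to 43.0 TPM in shScr and shPkm1 and 435 and 453 in labelled shPkm2, carried by Stmn2 at 414 and 455 CPM there against 61.1 and 53.4 in shScr. In shPkm1 the Stmn2 difference depended on the scaling: it was -0.44 with TMM (edgeR adjusted p = 0.00406), -0.24 with library totals (0.0649) and -0.05 on log2(TPM + 1) (limma adjusted p = 0.676). It was -0.36 without shPkm1 replicate 1 (edgeR adjusted p = 0.0718). The part of Syt1- or Stmn2-expressing cells in the Ptbp2 values was not tested.

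The families to which the factors belong were also counted. Of 38 hnRNP and SR genes listed, 37 were tested. In shPkm1, 15 were higher and 3 lower. In labelled shPkm2, 32 were higher and 2 lower, and between the hairpin groups 28 were higher and 1 lower (edgeR). The shares over all tested genes were 31.8% higher and 31.4% lower, 33.9% and 34.2%, and 25.7% and 27.3%, so that the shPkm1 count of higher genes lay near its background. The median log2 fold changes were 0.20, 0.63 and 0.41. Without the 6 listed factors, 31 tested genes gave 11 higher and 3 lower, 26 higher and 2 lower, and 22 higher and 1 lower, with medians of 0.19, 0.52 and 0.37. Of the SR genes, 10 of 10 tested were higher in labelled shPkm2 and 4 in shPkm1. With library totals alone the split was 28 higher and 2 lower in shPkm1, against 40.5% higher and 21% lower over all genes. It was then 35 higher and 1 lower in labelled shPkm2 (48.2% and 21.4% of all genes) and 34 higher and none lower between the hairpin groups (33.9% and 21.3% of all genes). The 18 calls in shPkm1 became 9 higher and 2 lower without shPkm1 replicate 1 (24.5% and 22.3% of all genes), and the 29 between the hairpin groups became 18 higher and 1 lower without shPkm1 replicate 2 (17.5% and 21.1%).

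Single family members went both ways. Hnrnph1, a splicing factor that binds runs of G, stood at 88.4 and 78.1 CPM in shScr, 152 and 139 in shPkm1, and 221 and 214 in labelled shPkm2. With Ptbp3 it had the largest log2 rise in shPkm1, at 0.81 (SE 0.103, edgeR adjusted p = 1.91e-05). Raly, an hnRNP C relative, fell in both hairpin groups: it stood at 542 and 546 CPM in shScr, 281 and 310 in shPkm1, and 249 and 272 in labelled shPkm2. Its log2 changes were -0.88 (SE 0.105, edgeR adjusted p = 9.84e-06) and -1.06 (SE 0.105, adjusted p = 1.19e-06). Pcbp1, which binds C-rich RNA, fell by 0.76 (SE 0.113, edgeR adjusted p = 6.91e-05) in shPkm1. In labelled shPkm2 its difference of -0.49 (SE 0.112, edgeR adjusted p = 0.00162) depended on TMM: it was -0.16 with library totals (edgeR adjusted p = 0.184) and -0.04 on log2(TPM + 1) (limma adjusted p = 0.773). Srsf5 was above shScr in both hairpin groups. Its difference between them, labelled shPkm2 over shPkm1, was -0.31 with TMM (SE 0.0968, edgeR adjusted p = 0.0158) and was not called with library totals (-0.18, edgeR adjusted p = 0.159), on log2(TPM + 1) (-0.23, limma adjusted p = 0.0994) or without shPkm1 replicate 1, labelled shPkm2 replicate 1 or labelled shPkm2 replicate 2 (edgeR adjusted p = 0.0716 to 0.145).

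**Figure D5:**
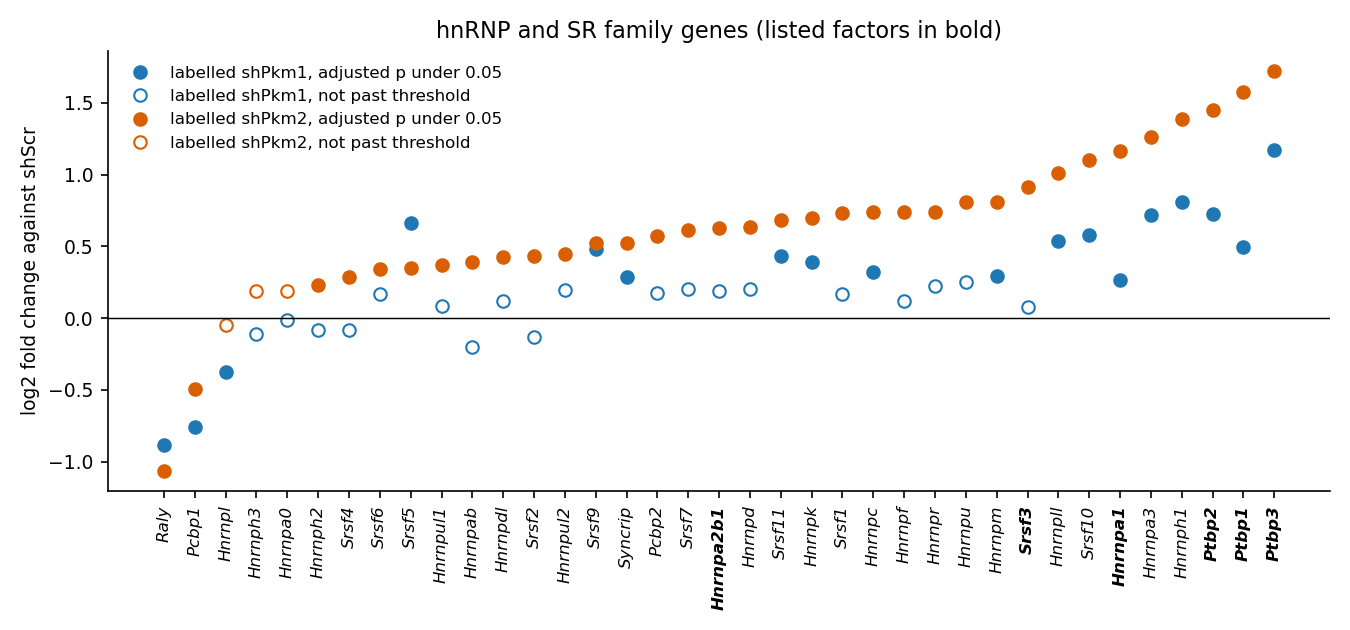
Log2 fold changes against shScr of the 37 tested hnRNP and SR family genes, ordered by their value in labelled shPkm2. Filled points have an edgeR adjusted p under 0.05 and the listed factors are in bold. With TMM scaling, 32 points are filled above 0 in labelled shPkm2 and 2 below, Raly and Pcbp1, of which Pcbp1 is not called with library totals.

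Other genes reported to steer the Pkm exons or Pkm transcription were taken from a short list. Myc, reported to raise transcription of Ptbp1, Hnrnpa1 and Hnrnpa2b1, stood at 39.0 and 33.0 CPM in shScr, 49.2 and 56.5 in shPkm1, and 48.2 and 44.7 in labelled shPkm2. It was higher than shScr by 0.55 (log2; SE 0.116, edgeR adjusted p = 0.00105) and 0.37 (SE 0.116, adjusted p = 0.0130). The latter was lost without shScr replicate 2 (0.25, edgeR adjusted p = 0.0569) or labelled shPkm2 replicate 1 (0.32, edgeR adjusted p = 0.0935). Unlike the factors, Myc did not pass in the direct comparison (-0.19, edgeR adjusted p = 0.183, against 1.08 for Ptbp1). Rbm4, reported to favour the Pkm1 exon in differentiating cells, stood at 36.6 and 30.9 CPM in shScr, 22.5 and 25.5 in shPkm1, and 16.6 and 16.1 in labelled shPkm2. It fell by 0.49 (SE 0.119, edgeR adjusted p = 0.00294) and by 1.04 (SE 0.122, adjusted p = 5.58e-06). The shPkm1 difference of Rbm4 was -0.29 with library totals (edgeR adjusted p = 0.0420), -0.39 without shPkm1 replicate 1 (edgeR adjusted p = 0.0519) and -0.09 on log2(TPM + 1), where it was not called (limma adjusted p = 0.557); in labelled shPkm2 it was -0.55 on that scale (limma adjusted p = 0.00239). Nek2, a mitotic kinase reported to bind the hnRNP A proteins, rose by 0.47 (edgeR adjusted p = 0.00567) and 1.88 (1.82e-08). Hif1a, which drives glycolytic genes at low oxygen, rose by 1.24 (edgeR adjusted p = 7.06e-07) and 1.36 (1.69e-07). Pklr, the liver and red cell pyruvate kinase, was not analysed here.

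The promoters of the members were searched for CACGTG, the E-box that Myc binds, in the 250 bases before each RefSeq start (GRCm38). It was found in 1 of 8 promoter entries of the members, that of Ptbp1, and in 6.02% of 32851 entries of all genes; the motif reads the same on both strands. The Ptbp1 window is chr10:79854182-79854431, with the motif in capitals, and is shown because it was the member entry that held the motif.
Ptbp1 promoter: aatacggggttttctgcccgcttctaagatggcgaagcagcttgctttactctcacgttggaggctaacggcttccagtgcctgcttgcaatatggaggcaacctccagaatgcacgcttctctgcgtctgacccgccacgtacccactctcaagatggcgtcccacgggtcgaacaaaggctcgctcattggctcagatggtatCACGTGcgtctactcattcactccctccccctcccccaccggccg
The match is a description of the letters in this window. No entry was matched for Ptbp3.

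Genes with the most similar profile were named by Pearson correlation of log2 CPM over the 6 libraries, among 10749 genes that averaged 50 counts or more. For Pkm these were Mindy1 (r = 0.997), Myo1e (0.995) and Hba-a1 (0.993), the last being 1 of a set of near-identical alpha-globin copies and therefore uncertain. For Ptbp1 they were Ncaph (0.9997), Fam83d (0.9996) and Kif20a (0.9994), of which Ncaph is a condensin subunit and Kif20a a mitotic kinesin. The 6 libraries form 3 groups and are not independent points, so these values only describe likeness.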

How the data were processed

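RNA-seq of 6 C2C12 libraries was analysed from 1 table with a row per RefSeq transcript. Per the file headers, the authors deposited estimated counts, TPM and FPKM for each library; 9 columns of group means were not used. The submitters' processing notes name mm10, HISAT, StringTie, Bowtie, RSEM and DESeq2 without roles or versions. Strandedness is not given in the sources used here.

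Estimated counts were summed per gene and rounded. Totals were 18216896 to 19796036 per library. Genes (12643) and transcripts (33433) passing filterByExpr (minimum count 10, total 15) were fitted with edgeR 4.0.16 (R 4.3.3): TMM, all 6 libraries, 1 coefficient per group, two-sided quasi-likelihood F-tests, Benjamini-Hochberg adjustment over the whole table, threshold 0.05. Ratios were tested with diffSpliceDGE and, as an addition, limma 3.58.1 (pseudocount 0.5). Permuting 2 against 2 libraries cannot give a p below 0.333. Replicates differed by more than sampling noise (chi-square per degree of freedom 5.94 to 30.8).

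The members and lists were chosen with earlier results of these data known. Named genes were all members and their transcripts, the short lists, the 2 largest and 2 smallest called family genes averaging 50 counts or more, and the 3 most similar genes. Alternatives were DESeq2 (1.42.0) and its size factors, library totals, other filters, limma on log2 TPM (pseudocount 1 or 0.1) and log2 FPKM (pseudocount 1), only the groups compared, the replicate block, and leaving out each library. Exon sequences came from GENCODE transcripts and promoters from RefSeq, both GRCm38. One alternative exon is not reported here.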

Additional observations from a re-analysis of the deposited data

How the results depend on the processing

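Over 16 alternatives for each member and comparison, 312 of 336 single-gene values kept direction and call, 13 gained a call, 11 lost it and none changed sign. The count of members called ran, with 1 library left out, from 4 to 5 in shPkm1, 6 to 7 in labelled shPkm2 and 5 to 7 between the hairpin groups. Calls follow with the share of all tested features called higher and lower under the same setting. The gene shares given below with the family counts, with a library left out, also apply to these member counts. For member transcripts in shPkm1, only the groups compared gave 2 calls, 1 of them higher (2.92% and 3.45% of all transcripts), the replicate block 2, 1 higher (2.51% and 2.25%), DESeq2 7, 5 higher (12% and 12.6%), log2(TPM + 1) 10, 9 higher (12.7% and 4.3%), and log2(TPM + 0.1) 11, 10 higher (12.5% and 3.94%). Between the hairpin groups DESeq2 gave 12, all higher (8.89% and 11.1%), and log2(FPKM + 1) 11, all higher (6.8% and 6.04%). Leaving out a library gave 1 to 4 in shPkm1 (0.204% to 3.99% and 0.167% to 2.67%), 6 to 11 in labelled shPkm2 (2.02% to 6.01% and 3.69% to 5.8%) and 1 to 5 between the hairpin groups (0.199% to 2.36% and 0.812% to 3.67%). Family genes called in shPkm1 numbered 30 with library totals, 28 higher (40.5% and 21% of all genes), 33 on log2(TPM + 1), 31 higher (49% and 13.7%), 33 on log2(TPM + 0.1), 31 higher (49.1% and 13.7%), and 30 on log2(FPKM + 1), 28 higher (39.5% and 21.1%). With a library left out they numbered 11 to 19 in shPkm1 (24.5% to 31.9% and 22.3% to 32.3%), 31 to 35 in labelled shPkm2 (27.7% to 33.7% and 28.4% to 34.5%) and 19 to 34 between the hairpin groups (17.3% to 30.5% and 20.9% to 31.5%). With a library left out, the group difference in log2 Pkm2 to Pkm1 ratio ran from 1.16 to 1.55 in shPkm1 against shScr. It ran from 2.02 to 2.41 in labelled shPkm2 against shScr, and from 0.73 to 0.99 between the hairpin groups. The curated-pair limma test called its labelled shPkm2 value of 2.22, and also 2.22 with the replicate block (adjusted p = 0.0275). The cause of these changes was not tested.

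The replicate numbers share no stated source: deviations of same-numbered libraries correlated at r = -0.03, 0.04 and 0.05 across genes. The replicate block lost the Hnrnpa1 call in shPkm1 (0.27, edgeR adjusted p = 0.0712) and no other call on a member's gene total. It lost calls on member transcripts, which fell from 4 to 2 in shPkm1, from 13 to 9 in labelled shPkm2 (4.84% and 6.26% of all transcripts) and from 6 to 4 between the hairpin groups (1.16% and 2.74%). The effect of depth was not tested.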
